A study of Mus musculus with 7 samples.

Results

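Carrier transcripts for sugars, amino acids, peptides, nucleosides and related solutes were followed in the scraped duodenum of Nlrc4-T337S and wild-type mice. Members were all rows of the gene table named as Slc1, Slc2, Slc3, Slc5, Slc6, Slc7, Slc15, Slc16, Slc17, Slc22, Slc28, Slc29, Slc36, Slc38 or Slc43 with a mean of at least 1 RPKM (reads per kilobase of transcript, scaled to the mapped reads of the library) over the 7 libraries. Of 22987 genes in the table, 151 had such a name and 63 reached that mean. The lowest member was Slc16a11 at 1.00 RPKM, and the highest gene left out was Slc29a3 at 0.9715. Of the 88 rows below the mean, 9 were listed at 0 in every library. The pattern also took in 4 rows that are not carriers: the pseudogenes Slc22a13b-ps and Slc2a4rg-ps, and Slc7a6os and Slc36a1os, named as opposite-strand genes. Slc7a6os was annotated as protein-coding with no exons overlapping a gene on the other strand, and Slc36a1os had no matched position.

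All mice were C57BL/6 and 6 weeks old. There were 4 libraries from mice with the T337S change in Nlrc4, a protein that assembles an inflammasome, and 3 from wild-type mice; series text names the allele as homozygous. RNA came from the scraped lumen, so a library holds every cell type the slide lifted, and fewer cells of a type cannot be told apart from less RNA per cell. Whether the libraries come from separate animals is not stated, so each p-value here measures only how these libraries spread.

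Enterocytes take up the products of digestion in 2 steps. Carriers in the brush border bring solutes in, many of them driven by the sodium or proton gradient, and carriers in the basolateral membrane pass them to the blood. Several amino acid carriers work as a heavy chain of the Slc3 family paired with a light chain of the Slc7 family.

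Libraries had 45032119 to 95732587 quality-passing reads, and 1 read per kilobase was worth 0.0124 to 0.0251 RPKM. Nlrc4 itself was at 18.3 to 20.6 RPKM in all 7, and a change of 1 residue cannot be checked from its level. Enterocyte markers such as Fabp1, Fabp2, Vil1 and Lct were present in every library, and their list summed to 30486 to 46122 RPKM in Nlrc4-T337S, against 33544 to 44306 in wild type. Some marker lists of other cells separated the genotypes and others did not. The 7 Paneth cell markers summed to 157 to 747 RPKM in Nlrc4-T337S, against 1174 to 1729 in wild type, and the 5 stem cell markers to 3.15 to 21.6 and 24.9 to 30.7. The 6 smooth muscle markers summed to 1.82 to 4.83 and 8.33 to 17.6, and the 6 T and NK cell markers to 365 to 471 and 286 to 333, where 3 of the 6 separated and Cd3e and Ptprc had negative log2 differences (-0.15 and -0.032). The pancreatic acinar and erythrocyte lists summed to 9.12 to 12.8 and 15.3 to 30.6 RPKM in Nlrc4-T337S, below the 22.3 to 32.3 and 50.6 to 81.3 of wild type. The goblet, enteroendocrine and tuft cell sums overlapped. None of the listed markers found in the table was at 0 in every library. S100g, the calcium-binding calbindin-D9k of the duodenum, split the libraries in another way. It stood at 12.6 and 11.2 RPKM in Nlrc4-T337S replicates 1 and 2 and at 19.2 and 19.8 in wild-type replicates 1 and 2. It stood at 2395 and 1346 in Nlrc4-T337S replicates 3 and 4 and at 2376 in wild-type replicate 3. The libraries under 100 RPKM were the 4 with odd numbers in their titles and those above it were the 3 with even numbers, so the split matched in 7 of 7 libraries. What the numbers stand for is not stated. Among the enterocyte markers Alpi was at 365 to 628 RPKM with low S100g and at 964 to 1268 with high S100g. Sis went the other way, at 1206 to 1989 and 880 to 963. The other listed enterocyte markers overlapped between the S100g levels.

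The members together summed to 4620 to 5305 RPKM, or 1.15% to 1.33% of the summed RPKM of a library. Slc5a1 (chromosome 5, 33446868 to 33505521, mm9), which encodes the sodium-glucose cotransporter SGLT1 of the brush border, was the most abundant and made up 27.0% to 30.7% of that sum. Its level was 1512, 1310, 1402 and 1266 RPKM in Nlrc4-T337S replicates 1 to 4, against 1471, 1420 and 1548 in wild type. The genotypes overlapped and the log2 difference, Nlrc4-T337S minus wild type, was -0.11 (95% interval -0.40 to 0.18; limma adjusted p = 0.630). Of the 63 members, 19 had a mean of at least 50 RPKM, 22 lay between 5 and 50 and 22 lay under 5.

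**Figure D1:**
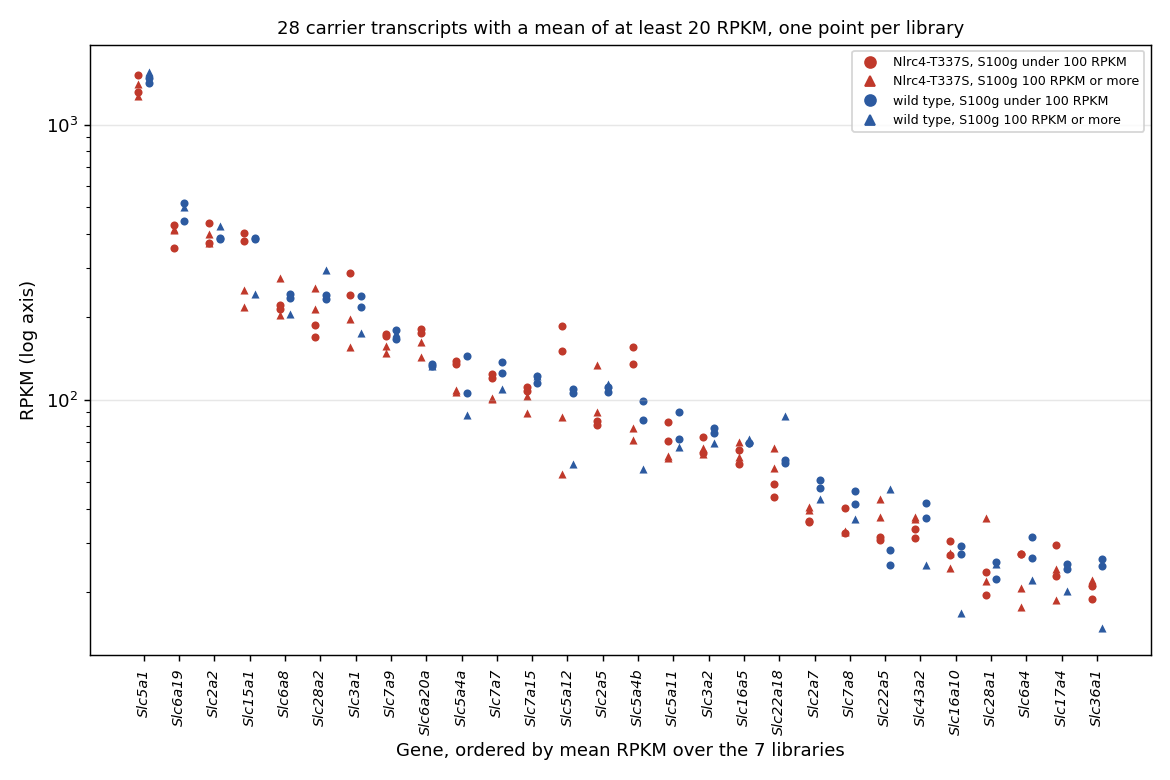
RPKM on a log axis of 28 members with a mean of at least 20 RPKM, one point per library, coloured by genotype and shaped by S100g level. Slc5a1 lies at 1266 RPKM or more in all 7 libraries, and Slc15a1, Slc5a12 and Slc5a4b separate the triangles from the circles rather than the colours.

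No member passed the genotype test. With limma and Benjamini-Hochberg adjustment at 0.05 over all 10987 genes tested, 0 members were higher and 0 lower, where 0.3% and 0.592% of all genes were. At an unadjusted limma p under 0.05 there were 2 members higher and 10 lower, or 3.17% and 15.9%, beside 1.86% and 20.4% of all genes. The genotypes did not overlap in 2 members that were higher and 12 that were lower, or 3.17% and 19.0%, beside 1.97% and 17.3% of all genes. These shares lay near those of all genes. In both comparisons the higher members included Slc6a20b and the lower ones Slc16a13. Slc6a20b reached 1 RPKM only through Nlrc4-T337S and Slc16a13 only through wild type. These counts were thus set in part by the rule for members. The median log2 difference was -0.16 over the members and -0.15 over all genes tested. Scaling moved both: with median-of-ratios factors they were 0.0039 and 0.0094, and after quantile normalization -0.026 and 0.027. Differences on the RPKM scale are thus to be read against the median of all genes of like level. That median was -0.047 for genes of at least 50 RPKM and -0.19 for genes of 1 to 5 RPKM. For members it was -0.12 for the 19 of at least 50 RPKM and -0.23 for the 22 under 5. For 54 of the 63 members the 95% interval lay within a 2-fold change in either direction, and for 39 within 1.5-fold. The 9 with wider reach were Slc1a1, Slc1a5, Slc29a1, Slc38a1, Slc16a9, Slc5a12, Slc5a8, Slc5a4b and Slc6a20b. Without Nlrc4-T337S replicate 2, 1 member was called higher and 3 lower, Slc6a20b and then Slc1a1, Slc29a1 and Slc28a3, where 0.674% and 11.6% of all genes were. With a term for odd or even title number, which is the S100g split, Slc2a1 alone was called (log2 difference -0.60, SE 0.11, limma adjusted p = 0.0431), where 0.391% of all genes were called higher and 0.956% lower. With array weights Slc6a20b was called higher and Slc1a1 lower, where 0.555% and 2.61% of all genes were.

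**Figure D2:**
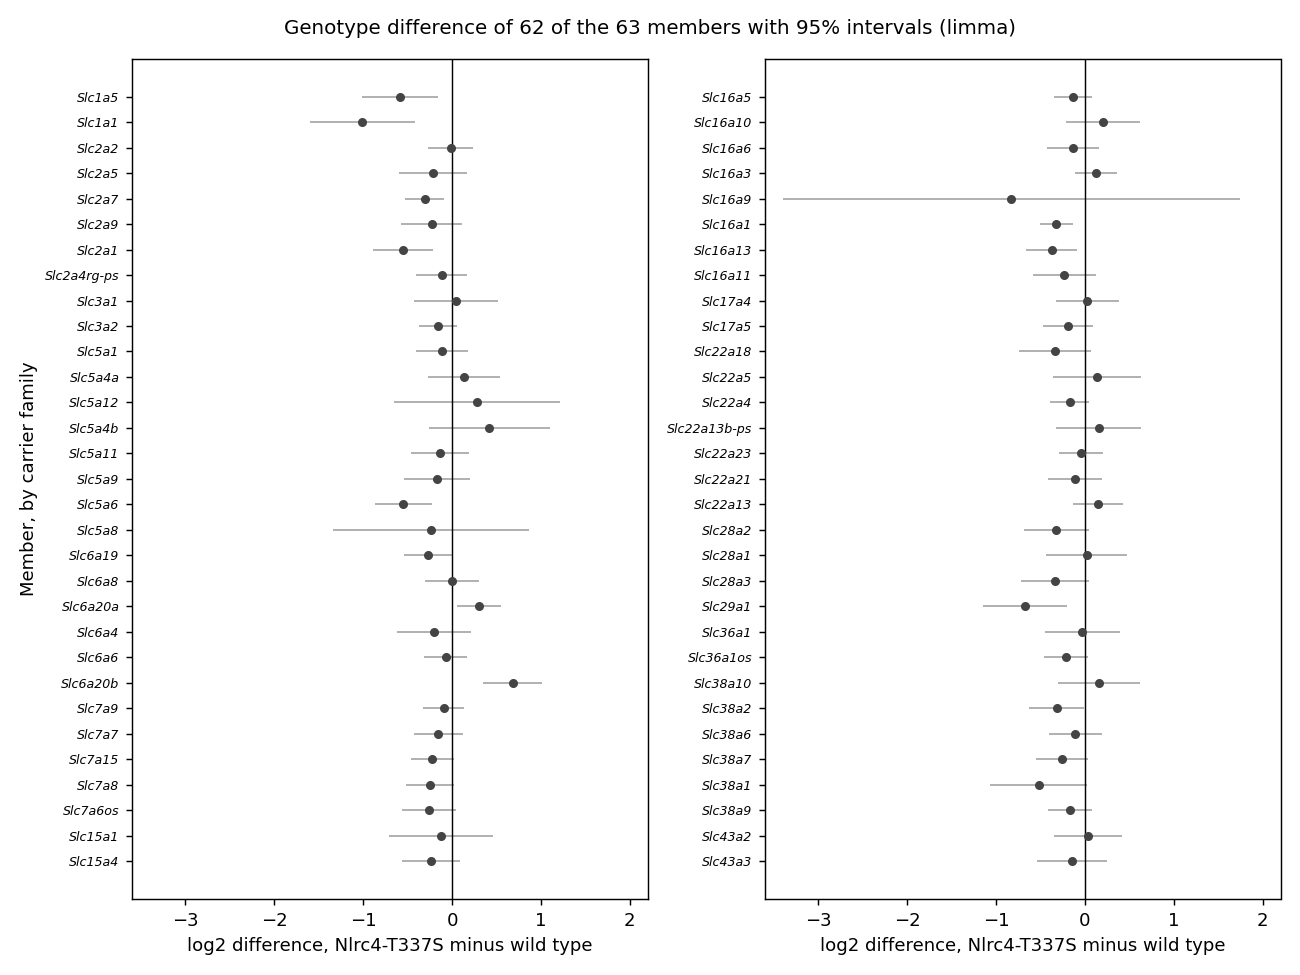
Log2 difference, Nlrc4-T337S minus wild type, of 62 of the 63 members by carrier family, with 95% limma intervals as bars. Most points lie slightly left of 0 at a median of -0.16; Slc6a20b at 0.68 and Slc1a1 at -1.01 lie farthest out on each side, and Slc16a9 has the widest interval.

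The proline and imino acid carrier gene Slc6a20a and its neighbour Slc6a20b were the 2 members whose Nlrc4-T337S libraries all lay above wild type. Slc6a20b (chromosome 9, 123502938 to 123541683) stood at 1.69, 1.51, 1.36 and 1.77 RPKM in Nlrc4-T337S, against 0.747, 1.09 and 0.597 in wild type. Its log2 difference was 0.68 (SE 0.15, limma adjusted p = 0.0768), the smallest p among the members. With a wild-type mean of 0.810 RPKM it reached the 1 RPKM asked of members only through Nlrc4-T337S, so its rank is a description and supports nothing about the members. It passed with median-of-ratios factors or quantiles in place of RPKM scaling, at limma adjusted p = 0.0354 and 0.0174, where 0.646% and 0.674% of all genes were called higher. Slc6a20a (chromosome 9, 123545240 to 123588003) stood at 174, 181, 143 and 162 RPKM in Nlrc4-T337S, against 135, 133 and 132 in wild type. Its log2 difference was 0.30 (SE 0.11, limma adjusted p = 0.171). The lowest Nlrc4-T337S library of Slc6a20a lay close to the highest wild-type one, and Slc6a20b stayed at a small fraction of the level of Slc6a20a throughout.

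The 2 genes lie 3557 bases apart and their coding sequences were 91.5% identical where aligned, so the division of reads between them is uncertain. Exons of Slc6a20a also overlap Ccr9, a chemokine receptor gene of gut lymphocytes, on the other strand, and the kit does not mark strand. Ccr9 was at 1.07 to 1.80 RPKM in Nlrc4-T337S, against 1.55 to 2.21 in wild type. The stretches before their starts are shown because the pair ranked first among the members that were higher. They are 150 bases each from RefSeq, build GRCm38.p6, minus strand, at chr9:123678833-123678982 for Slc6a20a and chr9:123632539-123632688 for Slc6a20b.
Slc6a20a: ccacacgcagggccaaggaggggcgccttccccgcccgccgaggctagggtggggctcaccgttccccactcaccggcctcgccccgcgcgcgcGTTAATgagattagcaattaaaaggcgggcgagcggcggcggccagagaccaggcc
Slc6a20b: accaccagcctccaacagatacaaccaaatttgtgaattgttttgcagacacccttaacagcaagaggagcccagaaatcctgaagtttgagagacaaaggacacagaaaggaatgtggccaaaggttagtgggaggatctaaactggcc
Capitals mark a match to the HNF1 half-site GTTAAT, searched on both strands, which begins 56 bases before the start of Slc6a20a. It is found in 3.71% of all 32851 RefSeq promoter windows of this length. No match lies in the Slc6a20b window.

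Slc6a19 (chromosome 13, 73817193 to 73842313), which encodes the main brush-border carrier of neutral amino acids, B0AT1, was at 430, 355, 418 and 413 RPKM in Nlrc4-T337S. In wild type it was at 446, 518 and 501. All Nlrc4-T337S libraries lay below wild type, replicate 1 only slightly, and the log2 difference was -0.27 (SE 0.12, limma adjusted p = 0.219). Slc6a8, the creatine carrier gene, was at 229 ± 32.8 RPKM in Nlrc4-T337S (SD, n = 4), against 227 ± 19.9 in wild type (SD, n = 3). Of 6 Slc6 members, 3 had positive and 3 negative differences.

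The heavy and light chains of the amino acid exchangers differed little by genotype. Slc7a9, the light chain of the brush-border cystine and dibasic amino acid exchanger, was at 162 ± 11.9 RPKM in Nlrc4-T337S, against 173 ± 6.66 in wild type. Its heavy chain Slc3a1 was at 220 ± 57.1 and 210 ± 32.2. On the basolateral side, Slc7a7, which exports dibasic amino acids, was at 111 ± 12.1 and 124 ± 13.5, and Slc7a8, a neutral amino acid exchanger, at 34.9 ± 3.71 and 41.7 ± 4.90. Their shared heavy chain Slc3a2 (CD98) was at 66.9 ± 4.37 and 74.6 ± 4.86. Slc7a15, in mouse described as an aromatic-preferring carrier, was at 103 ± 9.72 and 120 ± 4.19, with no overlap (log2 difference -0.22, limma adjusted p = 0.252). All 5 Slc7 rows, Slc7a6os among them, had negative differences, from -0.26 to -0.10, where 78.0% of all genes did. With median-of-ratios factors 3 of 5 were negative, and on the quantile-normalized scale 4 of 5. The other basolateral exporters, Slc16a10 for aromatic amino acids and Slc43a2 for branched-chain ones, were at 27.6 ± 2.53 and 24.5 ± 6.77 RPKM and at 34.9 ± 2.83 and 34.8 ± 8.81.

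Of the Slc2 sugar carriers described here, Slc2a2 and Slc2a5 overlapped between genotypes, while Slc2a7 and Slc2a1 did not. Slc2a2 (chromosome 3, 28596825 to 28627278), which encodes GLUT2, the basolateral glucose exit route, was at 439, 370, 399 and 371 RPKM in Nlrc4-T337S, against 388, 383 and 426 in wild type. Its interval ran from -0.27 to 0.24 around a log2 difference of -0.017. Slc2a5, the fructose carrier GLUT5, was at 81.0, 83.6, 134 and 90.4 RPKM in Nlrc4-T337S, against 107, 111 and 114 in wild type, and replicate 3 alone of the former lay above wild type. Slc2a7 (chromosome 4, 149523081 to 149542591), which encodes GLUT7 and lies 4803 bases from Slc2a5, was at 35.98, 36.3, 40.6 and 39.7 RPKM in Nlrc4-T337S, against 47.6, 51.0 and 43.6 in wild type. The groups did not overlap (log2 difference -0.31, SE 0.10, limma adjusted p = 0.142). Slc2a1, the widely expressed GLUT1, was far lower, at 1.38, 1.70, 1.94 and 2.17 RPKM in Nlrc4-T337S, against 2.57, 2.62 and 3.38 in wild type (log2 difference -0.55, SE 0.15, limma adjusted p = 0.115). All 6 Slc2 rows, Slc2a4rg-ps among them, had negative differences, where 78.0% of all genes did. With every library rescaled to the same RPKM sum 5 were negative, and 4 after either median-of-ratios scaling or quantile normalization.

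Nucleoside carriers were led by Slc28a2, the sodium-coupled purine nucleoside carrier. It was at 187, 169, 214 and 254 RPKM in Nlrc4-T337S, against 240, 233 and 297 in wild type, with overlap (log2 difference -0.32, SE 0.16, limma adjusted p = 0.269). Its coding sequence shared 94.8% identity with Gm14085, which stood at 0.135 to 0.352 RPKM. Slc28a1, for pyrimidine nucleosides, was at 25.5 ± 7.91 RPKM and 24.5 ± 1.85. The equilibrative carrier Slc29a1 (chromosome 17, 45722149 to 45736555) was at 0.768, 1.71, 0.699 and 1.15 RPKM in Nlrc4-T337S, against 1.91, 2.15 and 1.81 in wild type. The groups did not overlap (log2 difference -0.68, SE 0.21, limma adjusted p = 0.141).

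Several other members of low or moderate level also had negative differences without overlap. Slc1a1 (chromosome 19, 28909539 to 28988450), the glutamate and aspartate carrier EAAC1, was at 0.741, 2.06, 1.01 and 0.690 RPKM in Nlrc4-T337S, against 3.23, 2.32 and 2.35 in wild type. Its log2 difference was -1.01 (SE 0.26, limma adjusted p = 0.106), the largest negative one among the members, followed by Slc16a9 at -0.83, and Nlrc4-T337S replicate 2 came nearest to wild type. Slc1a5, the glutamine carrier ASCT2, was at 1.90, 3.16, 1.98 and 3.25 RPKM and 4.36, 4.30 and 3.46 (log2 difference -0.59, limma adjusted p = 0.147). Slc5a6, the carrier of biotin and pantothenate, was at 3.33, 2.83, 4.42 and 3.94 RPKM and 5.24, 5.93 and 5.27 (log2 difference -0.55, limma adjusted p = 0.108). Slc16a1, the monocarboxylate carrier MCT1, was at 10.5, 10.3, 11.1 and 10.6 RPKM and 13.6, 13.7 and 12.9 (log2 difference -0.32, SE 0.08, limma adjusted p = 0.106). In each of these 4 the genotypes did not overlap. Exons of Slc1a1 and Slc5a6, like those of Slc2a1 and Slc29a1, overlap genes on the other strand, and the kit does not mark strand. How many of their reads come from those genes was not tested. Slc38a1, a sodium-coupled glutamine carrier, was at 1.30 ± 0.661 and 1.98 ± 0.265 RPKM, with overlap. Among the 22 members under 5 RPKM, 20 had negative differences (median -0.23), but 16 with median-of-ratios factors and 9 on the quantile-normalized scale, where the median was 0.020. On the RPKM scale 90.9% of these members were negative, beside 84.9% of all genes of 1 to 5 RPKM. The median of those genes was -0.19. Slc16a13 and Slc16a11, among the 20, reached 1 RPKM only through wild type, with Nlrc4-T337S means of 0.966 and 0.905. The count of 20 was thus set in part by the rule for members.

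Crypt and stroma markers were also lower in Nlrc4-T337S, and whether these members follow them cannot be told from these libraries. A score averaged from the lists for Paneth and stem cells, smooth muscle, and fibroblasts with endothelium was -0.999, 0.081, -1.01 and -0.58 in Nlrc4-T337S replicates 1 to 4, against 1.02, 0.89 and 0.60 in wild type. A limma fit that held this score called 0 members and 0 genes in all; 5 members were higher and 3 lower at an unadjusted p under 0.05, where 5.17% and 1.76% of all genes were. The log2 difference became 0.16 for Slc1a1 (SE 0.39), 0.38 for Slc29a1 (SE 0.24) and 0.26 for Slc1a5, and it was -0.99 for Slc5a6 (SE 0.28) and -0.61 for Slc2a1 (SE 0.34). For Slc6a20b it was 0.79 (SE 0.33) and for Slc6a20a 0.55 (SE 0.24). Nlrc4-T337S replicate 2, of the highest score in its genotype, was nearest to wild type for Slc1a1 and Slc29a1 but lowest of all for Slc5a6 and Slc16a1. Every wild-type score exceeded every Nlrc4-T337S score, so the effects of the score and of genotype cannot be told apart. The values with this term therefore do not sort the members.

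Several members followed the S100g split instead. Comparing the 3 libraries with S100g at 100 RPKM or more with the 4 under 100, levels did not overlap for 2 members that were higher and 10 that were lower, or 3.17% and 15.9% of the members. Over all genes tested the shares were 2.91% and 4.87%. Slc5a8, among the 10, had a mean of 2.17 RPKM with low S100g and 0.531 with high S100g. It reached the mean asked of members only through the former, so the count of 10 was set in part by the rule for members. No test was made, since S100g was measured in these same libraries. Among the 19 members of at least 50 RPKM, 6 were lower without overlap; among the 1166 genes of that level, 85 were.

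Slc15a1 (chromosome 14, 121858841 to 121904475) encodes PEPT1, the proton-coupled carrier of di- and tripeptides in the brush border. With S100g under 100 RPKM it was at 405 and 379 RPKM in Nlrc4-T337S, against 383 and 386 in wild type. With S100g at 100 or more it was at 217 and 251 RPKM in the former, against 243 in the latter. Both genotypes were lower in the high S100g libraries, and within each level the log2 genotype difference was small, at 0.027 and -0.055. Slc3a1 (chromosome 17, 85427687 to 85463583), the heavy chain rBAT, followed the same division. It was at 289 and 240 RPKM in Nlrc4-T337S, against 238 and 218 in wild type with S100g under 100, and at 156, 197 and 175 in Nlrc4-T337S replicates 3 and 4 and wild-type replicate 3. Its light chain Slc7a9 did not: it was at 166 to 179 RPKM in the former 4 libraries and 148, 156 and 174 in the latter 3.

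Within the Slc5 family 5 of 8 members were lower without overlap where S100g was high, beside 4.87% of all genes. Slc5a12 (chromosome 2, 110437455 to 110487936), a sodium-coupled carrier of lactate and other monocarboxylates, was at 185, 150, 109 and 106 RPKM in Nlrc4-T337S replicates 1 and 2 and wild-type replicates 1 and 2. It was at 53.8, 86.7 and 58.6 in Nlrc4-T337S replicates 3 and 4 and wild-type replicate 3. Its relative Slc5a8 (chromosome 10, 88348737 to 88392250), of higher affinity, was at 2.37, 1.96, 2.75 and 1.60 RPKM in the same first 4 libraries and 0.371, 0.667 and 0.556 in the last 3. It reached 1 RPKM only through the libraries with low S100g, so its place among the 5 was set in part by the rule for members. Slc5a4b (chromosome 10, 75520239 to 75573706), a mouse copy of SGLT3, was at 135, 155, 99.2 and 84.3 RPKM and 71.5, 78.9 and 56.2. The mean log2 level of Slc5a4b was higher in Nlrc4-T337S at both levels, by 0.66 and 0.42, and over all libraries the genotypes overlapped (log2 difference 0.42, SE 0.30, limma adjusted p = 0.428). With a term for odd or even title number the log2 difference of Slc5a4b was 0.56 (SE 0.11, limma adjusted p = 0.0602). Its neighbour Slc5a4a, 36490 bases away and 79.2% identical in coding sequence, was at 138, 134, 144 and 105 RPKM and 106, 109 and 88.0, with overlap. Slc5a11, an inositol carrier, and Slc5a9, which in human carries mannose, were the other 2, at 70.9 to 90.2 and 61.3 to 67.0 RPKM, and at 13.6 to 15.3 and 9.06 to 12.8. Slc5a1 itself overlapped, at 1310 to 1512 and 1266 to 1548 RPKM.

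Outside the Slc5 family, Slc7a7 was at 120 to 137 RPKM with low S100g and 101 to 110 with high S100g. The serotonin carrier gene Slc6a4 was at 26.5 to 31.6 and 17.7 to 22.1, and the taurine carrier gene Slc6a6 at 14.3 to 16.3 and 12.4 to 14.3, where the levels nearly touched.

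Slc16a9 (chromosome 10, 69707848 to 69748716), a monocarboxylate-family gene whose human product is linked to carnitine transport, had the widest range of all members, 67.3-fold. It was at 3.53, 0.621, 4.71 and 8.30 RPKM in Nlrc4-T337S replicates 1 and 2 and wild-type replicates 1 and 2. It was at 34.5, 14.8 and 41.8 in Nlrc4-T337S replicates 3 and 4 and wild-type replicate 3. All 3 libraries with high S100g lay above the other 4, and in each level every Nlrc4-T337S library lay below wild type, by 1.67 and 0.87 on the log2 scale on average. Over all 7 libraries the genotype difference was -0.83 with an interval from -3.40 to 1.74 (limma adjusted p = 0.686). Slc22a5 (chromosome 11, 53678044 to 53705162), the carnitine carrier OCTN2, was the other member higher with S100g. It was at 31.7, 30.9, 28.4 and 25.1 RPKM in the first 4 and 43.7, 37.4 and 47.4 in the last 3. Its coding sequence is 91.2% identical to that of Slc22a21, which was at 1.68 to 2.62 RPKM.

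**Figure D3:**
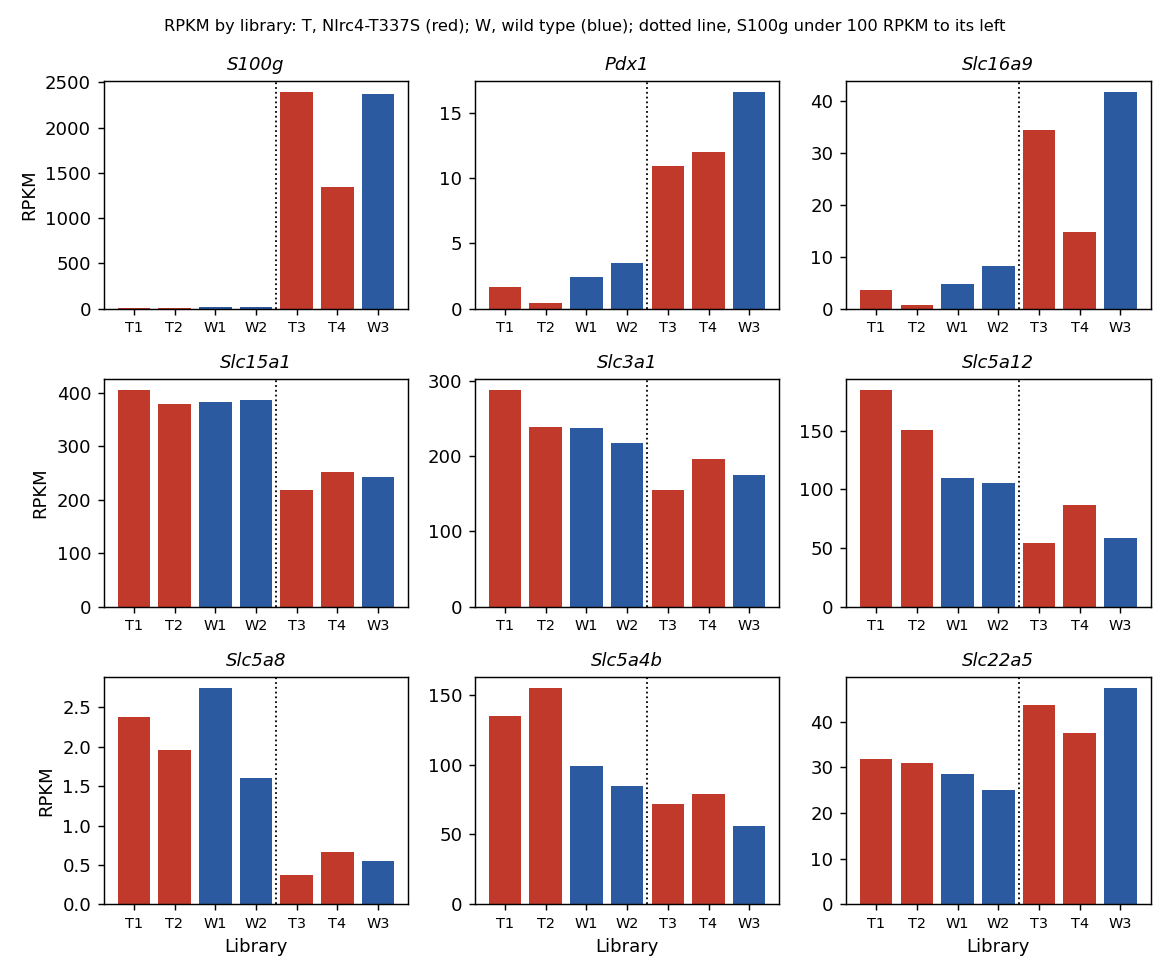
RPKM by library for S100g, Pdx1 and 7 members, with Nlrc4-T337S in red, wild type in blue and a dotted line between libraries with S100g under and over 100 RPKM. Slc16a9 and Slc22a5 are higher to the right of the line and Slc15a1, Slc3a1, Slc5a12, Slc5a8 and Slc5a4b lower, in both genotypes.

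The stretches before the starts of Slc15a1, Slc16a9, Slc3a1 and Slc5a4b are shown as a choice among the members that separated with S100g. They are 150 bases each from RefSeq, build GRCm38.p6, at chr14:121505255-121505404 (minus strand), chr10:70245126-70245275 (plus), chr17:85028197-85028346 (plus) and chr10:76111019-76111168 (minus).
Slc15a1: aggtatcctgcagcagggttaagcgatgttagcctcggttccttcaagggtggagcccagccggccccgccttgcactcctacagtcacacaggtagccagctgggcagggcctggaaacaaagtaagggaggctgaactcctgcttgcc
Slc16a9: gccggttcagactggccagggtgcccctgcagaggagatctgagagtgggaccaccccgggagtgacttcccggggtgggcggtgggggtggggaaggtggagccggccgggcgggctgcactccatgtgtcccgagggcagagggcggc
Slc3a1: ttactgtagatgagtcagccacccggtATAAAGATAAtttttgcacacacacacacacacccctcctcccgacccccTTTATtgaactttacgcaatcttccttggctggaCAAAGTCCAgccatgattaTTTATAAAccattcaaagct
Slc5a4b: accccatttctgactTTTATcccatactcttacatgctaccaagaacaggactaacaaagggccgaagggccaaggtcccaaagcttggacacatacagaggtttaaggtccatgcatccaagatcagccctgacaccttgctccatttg
Capitals mark matches on either strand to the HNF1 half-site GTTAAT, the CDX core TTTAT, the HNF4 core CAAAGTCCA or the GATA core AGATAA. Slc3a1 held 4 CDX cores, 2 of them overlapping by 2 bases and 1 overlapping the GATA core, and 1 HNF4 core beginning 39 bases before the start. Slc5a4b held 1 CDX core, and the windows of Slc15a1 and Slc16a9 held none of the 4 motifs. The window of Slc5a8, which also separated but is not printed, held a CDX core 82 to 78 bases before the start. Of the members 48 were matched by symbol to 63 such windows, of which 12.7% held a CDX core and 1.59% an HNF4 core. The shares over all 32851 windows were 24.1% and 0.271%. A GATA core was found in 1.59% of the members' windows and 5.65% of all, and an HNF1 half-site in 3.17% of the members' windows.

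Differences between genotypes were also read within each S100g level, with 2 against 2 libraries under 100 RPKM and 2 against 1 above it. The difference had the same sign at both levels in 50 of 63 members (79.4%), beside 72.2% of all genes. It was negative at both in 40 (63.5%, beside 59.8%) and positive at both in 10 (15.9%, beside 12.4%). Slc1a1 differed by -0.86 and -1.09 on the log2 scale with low and high S100g, Slc29a1 by -0.59 and -0.72, Slc2a1 by -0.60 and -0.61 and Slc6a20b by 0.57 and 0.91. Slc36a1, the proton-coupled carrier of small amino acids, and Slc43a2 went opposite ways, by -0.36 and 0.55 and by -0.28 and 0.56.

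**Figure D4:**
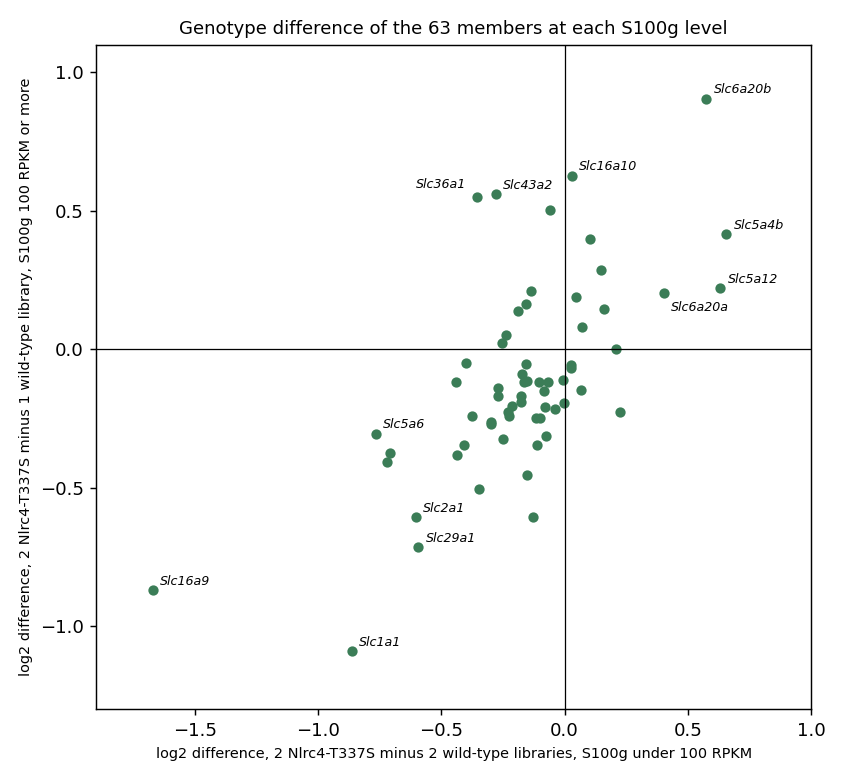
Log2 genotype difference of each of the 63 members in the 4 libraries with S100g under 100 RPKM (horizontal) and in the 3 with more (vertical); the vertical axis rests on 1 wild-type library. Slc6a20b lies far into the upper right, and Slc1a1, Slc29a1, Slc2a1 and Slc16a9 into the lower left.

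By site in the cell, 24 members belonged to a list of brush-border carriers and 11 to a list of basolateral carriers. In the first, 2 were higher and 5 lower in Nlrc4-T337S at an unadjusted limma p under 0.05, with a median log2 difference of -0.13; in the second 0 were higher and 3 lower, with a median of -0.16. The shares lower, 20.8% and 27.3%, stand beside 20.4% of all genes, and the 8.33% and 0% higher beside 1.86%. The 2 higher were Slc6a20a and its near copy Slc6a20b. Slc6a20b reached 1 RPKM only through Nlrc4-T337S, so the 8.33% is a description and supports nothing about brush-border carriers. With high S100g, 7 brush-border members were lower and 1 higher without overlap, and 1 basolateral member was lower, where 4.87% of all genes were lower and 2.91% higher. Slc5a8, among the 7, was a member only through the libraries with low S100g. The 4 lysosomal members, such as the arginine-sensing Slc38a9 and the sialic acid carrier Slc17a5, had differences from -0.26 to -0.17. Of all genes 78.0% were negative on that scale. After quantile normalization the 4 ran from -0.032 to 0.084, with 3 of 4 positive. In the organic ion and phosphate families, Slc22a18 was at 54.2 ± 9.76 RPKM in Nlrc4-T337S, against 68.9 ± 15.8 in wild type, and Slc17a4 at 23.8 ± 4.48 and 23.2 ± 2.74. Slc16a5 was at 64.1 ± 5.06 and 70.3 ± 1.18, and Slc16a3 (MCT4) at 16.7 ± 1.45 and 15.3 ± 1.23.

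Partners and regulators of the carriers were read in the same way. Of 25 listed genes 24 were in the table and 23 were tested, and limma called 0 higher and 0 lower; 2 were higher and 3 lower at an unadjusted p under 0.05, beside 1.86% and 20.4% of all genes. Hnf4g, a nuclear receptor of enterocytes, was at 227, 200.5, 146 and 141 RPKM in Nlrc4-T337S, against 132, 126 and 126 in wild type, without overlap (log2 difference 0.45, SE 0.17, limma adjusted p = 0.185). G6pc, which releases free glucose, was at 31.3, 40.3, 23.5 and 17.5 and at 12.8, 16.05 and 20.1, with overlap (log2 difference 0.72, limma adjusted p = 0.174). Pdx1, a transcription factor known from the proximal duodenum and pancreas, followed S100g: it was at 1.66, 0.430, 2.44 and 3.53 RPKM in the 4 libraries with low S100g and 10.9, 12.0 and 16.6 in the other 3. Of the 23 tested, 1 was higher and 2 lower without overlap where S100g was high, beside 2.91% and 4.87% of all genes, the lower 2 being Anpep, a peptidase, and Pdzk1, a scaffold of the brush border.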

How the data were processed

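RNA-seq libraries of duodenal scrapings used, per the labels' protocols, a TruSeq RNA kit without strand information. Per the file headers and the submitters' processing notes, the authors mapped reads to mm9 (TopHat 2.1.0) and deposited RPKM values from Partek 6.16.0606. Gene models and the treatment of multi-mapping reads: not given in the sources used here. Read counts per library and the fraction of reads mapped (84.2% to 97.1%) were deposited in a separate table. RPKM is not a count, so log2(RPKM + 0.5) was tested over the 10987 genes with a mean of at least 0.5 RPKM with limma 3.58.1 in R 4.3.3 (mean-variance trend, two-sided, Benjamini-Hochberg adjustment). Fold changes are on that scale and understate those of low genes. The steps were tested on simulated data.

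Members and lists were chosen with earlier results of these data known. Members were named if they passed, led their family, had one of the 5 smallest p-values per direction or one of the 10 widest ranges, or were brush-border or basolateral carriers of at least 20 RPKM; 39 were, of which 1 is not reported here, nor is 1 gene of the partner list. Other members and the motifs were chosen after values or sequences were seen. Alternatives were other pseudocounts, filters, scalings, weights, thresholds and terms, and leaving out libraries. Positions are from GENCODE vM1 (mm9), matched by symbol for 61 of 63 members, and near copies from blastn 2.17.0. Of the members, 12 have exons overlapping a gene on the other strand, among them Slc1a1, Slc2a1, Slc5a6, Slc16a9 and Slc29a1. Figures were drawn with matplotlib 3.10.9.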

Additional observations from a re-analysis of the deposited data

Results flagged for a closer look

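In 2 of the members named by the rule above, a single Nlrc4-T337S library stood apart from the other 3 by Dixon's criterion. By chance the criterion marks about 1 in 20 groups. Slc7a8 was at 40.5 RPKM in replicate 2 and Slc38a10 at 8.28 RPKM in replicate 3 against 12.5 to 13.0 in the others. The count leaves out members the rule did not name, such as Slc22a21. It was at 1.68 RPKM in Nlrc4-T337S replicate 1 and at 2.37 to 2.46 in the other Nlrc4-T337S libraries.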

How the results depend on the processing

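Directions and calls were recomputed under 22 other settings, 2 of them chosen after seeing the data. One member, Slc6a20b, was called higher after median-of-ratios scaling, after quantile normalization, with array weights and at an adjusted p threshold of 0.10, so the count of members called higher was 1 in each, beside 0.646%, 0.674%, 0.555% and 0.564% of all genes. The count called lower was 1 with array weights (Slc1a1, limma adjusted p = 0.0406) and 1 with a term for title number or S100g level (Slc2a1), beside 2.61% and 0.956% of all genes. Leaving out 1 library gave 0 to 1 called higher and 0 to 3 called lower, and a median of -0.19 to -0.13. The highest counts came without Nlrc4-T337S replicate 2, where limma called 74 genes higher and 1272 lower in all. The members' median was 0.0039 after median-of-ratios scaling, -0.026 after quantile normalization and 0.089 with a crypt and stroma term; the all-gene median with that term was 0.12.

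Uncalled log2 differences changed sign as follows, and the cause was not tested. With every library rescaled to the same RPKM sum Slc2a2 was 0.038 and Slc36a1 0.023. After median-of-ratios scaling Slc5a1 was 0.068, Slc2a2 0.16, Slc15a1 0.054, Slc7a9 0.083, Slc7a7 0.024, Slc5a11 0.041, Slc3a2 0.020, Slc16a5 0.042 and Slc36a1 0.14. After quantile normalization Slc2a2 was 0.0026, Slc7a9 0.030, Slc36a1 0.077 and Slc5a8 0.022. With array weights Slc43a2 was -0.011. With a term for title number or S100g level Slc28a1 was -0.028 and Slc36a1 0.0063. With a crypt and stroma term Slc15a1 was 0.54, Slc7a9 0.0050, Slc7a7 0.072, Slc3a2 0.089, Slc7a8 0.21, Slc22a5 -0.48, Slc28a1 -0.29, Slc36a1 0.34, Slc16a3 -0.078, Slc1a5 0.26, Slc1a1 0.16, Slc5a8 1.07 and Slc29a1 0.38. In the 4 libraries with S100g under 100 RPKM alone Slc2a2 was 0.065, Slc15a1 0.027, Slc43a2 -0.28, Slc28a1 -0.16 and Slc5a8 0.027. Without Nlrc4-T337S replicates 1 and 3, lowest in that score, Slc28a1 was -0.10 and Slc36a1 0.012. Leaving out 1 library, the values ran from -0.10 to 0.19 for Slc3a1, from -0.29 to 0.12 for Slc36a1, from -0.070 to 0.031 for Slc2a2, from -0.082 to 0.13 for Slc17a4, from -1.60 to 0.052 for Slc16a9, from -0.17 to 0.13 for Slc28a1 and from -0.67 to 0.14 for Slc5a8. They ran from -0.045 to 0.41 for Slc22a5, from -0.35 to 0.035 for Slc15a1, from -0.18 to 0.19 for Slc43a2, from -0.024 to 0.33 for Slc5a4a, from -0.0089 to 0.61 for Slc5a12, from -0.044 to 0.35 for Slc16a10 and from -0.032 to 0.32 for Slc38a10.

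No paired analysis was possible because the labels give no replicate numbers, and numbers in accession order pair nothing. With 4 against 3 libraries, a difference that was not called is not shown to be absent, and the level with high S100g holds 1 wild-type library.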
